A study of Mus musculus with 47 samples.

Results

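The common gamma chain gene *Il2rg* was described together with 6 genes that encode its partner cytokine receptor chains, *Il2rb*, *Il2ra*, *Il7r*, *Il4ra*, *Il15ra* and *Il21r*. These 7 genes were matched by symbol and identifier among 56748 genes in a table of RNA-seq counts. *Il2rg* was selected on its values in m.11,944 60% cells and in m.12,436 60% tumors, where it was higher than in the controls. Its values in those contrasts are therefore given as a description, with no test. The 6 partners were added as textbook members of the receptor family, after results of these data were known.

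The common gamma chain is a shared subunit that cytokine receptors need to signal. It pairs with the IL-2, IL-15, IL-7, IL-4 and IL-21 receptor chains and passes the signal to STAT proteins through the kinase JAK3. Several of the partner chains, but not all, carry JAK1. The receptors are best known from lymphocytes and natural killer (NK) cells. The IL-4 receptor chain is also found outside the blood lineages, where it can pair with IL-13 receptor chains.

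The cells were B78-D14, an amelanotic mouse melanoma line derived from B16. A mitochondrial base editor had been used to place a truncating mutation in mitochondrial *Nd5*, at position 11,944 or 12,436, and the heteroplasmy, the percentage of mitochondrial DNA copies with the mutation, was 60% or 40%. The 8 cultures were 4 of m.11,944 60% cells and 4 of wild-type control cells. The 18 tumors were 7 of m.12,436 60%, 7 of m.12,436 40% and 4 from wild-type control cells. Each tumor library came from a fragment of a subcutaneous allograft in an immunocompetent C57BL/6 male. All these samples were labelled as untreated, and the labels give no age. The cultured mutation and the tumor mutation were different ones, so that the mutant cultures are not the cells from which the mutant tumors grew. Between 16475735 and 36173502 reads per library were counted on genes.

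The labels were first checked against marker genes. In the cultures, 6 of 8 T cell markers and 6 of 7 NK cell markers had no count in any library, and the T cell list had 4 counts in all 8 cultures together. Among the leukocyte markers, *Ptprc*, the common leukocyte antigen, was at 0 in the control cells, and most of the summed level came from *Arhgap30*, at 65.5 CPM (counts scaled to the TMM-adjusted library size) in control cells. Of the pigment cell markers, *Tyr* had no count in the cultures, and *Pmel*, *Mlana* and *Dct* were under 1 CPM on average in both groups of cells, while *Mitf* was at 15.0 CPM in the controls. Control tumor 003 stood apart in this list, at a summed 63.7 CPM against 22.4 to 26.7 CPM in the other control tumors. *Dct* reached 26.3 CPM in it and had no count in any m.12,436 tumor. Without control tumor 003, 66 genes were called for 60% minus control in place of 374, and the difference of *Il2rg* was 0.52. In tumors, by contrast, *Ptprc* averaged 73.0 CPM in the control group and *C1qa*, a macrophage complement gene, 340 CPM. In bulk tumors, fewer cells of a type and less RNA per cell cannot be told apart.

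All 7 genes are protein coding, and 4 of them lie in 2 close pairs of neighbours in GRCm39, the build of the count table. *Il2rg* (ENSMUSG00000031304) is on the minus strand at chrX:100307984-100311861. *Il2ra* (ENSMUSG00000026770), at chr2:11647618-11698004, is followed after 12097 bases by *Il15ra* (ENSMUSG00000023206), at chr2:11710101-11739128. *Il4ra* (ENSMUSG00000030748), at chr7:125151079-125182844, is followed after 19757 bases by *Il21r* (ENSMUSG00000030745), at chr7:125202601-125232756. *Il2rb* (ENSMUSG00000068227) and *Il7r* (ENSMUSG00000003882) both lie on the minus strand of chromosome 15, at chr15:78363456-78395566 and chr15:9505874-9530262. Parts of *Il2rb*, *Il2ra* and *Il4ra* overlap annotated noncoding genes on the opposite strand (*Gm62993*, *Gm39760* and *Gm44876*), and without a stated strand setting their reads cannot be told apart. *Gm44876*, the one of these 3 in the count table, had at most 2 counts in a tumor and 0 in the cultures.

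The promoters of *Il2rg* and *Il15ra* are shown, because these genes varied together across tumors (r = 0.81, as described further on) and both windows hold the same ETS-type motif. Each line gives the 250 bases upstream of the RefSeq start (GRCm38.p6 table), 5′ to 3′ on the gene's strand, with matches in capitals. In GRCm39 the same bases were found once, at chrX:100311862-100312111 (minus strand) and chr2:11709854-11710103 (plus strand).
Il2rg: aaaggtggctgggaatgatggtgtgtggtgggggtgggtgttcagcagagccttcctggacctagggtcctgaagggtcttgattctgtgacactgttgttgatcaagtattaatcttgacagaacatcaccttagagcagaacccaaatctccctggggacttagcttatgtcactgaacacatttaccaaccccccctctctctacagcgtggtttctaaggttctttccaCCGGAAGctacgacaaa
Il15ra: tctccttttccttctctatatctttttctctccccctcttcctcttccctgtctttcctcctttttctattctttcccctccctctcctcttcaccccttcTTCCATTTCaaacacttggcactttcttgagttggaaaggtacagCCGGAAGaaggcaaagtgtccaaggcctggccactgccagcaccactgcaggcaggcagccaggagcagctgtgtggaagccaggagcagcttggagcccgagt

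The letters CCGGAAG, an ETS-type core, lie at −17 to −11 from the start of *Il2rg* and at −104 to −98 from that start of *Il15ra*. On either strand, they occur in 6.91% of the 32851 promoter windows of the same length. The STAT-type letters TTCNNNGAA occur in 7.02% of windows and, among the members, in that of *Il7r*, at −142 to −134. The interferon-type letters GAAANNGAA occur in 7.13% of windows and, on the opposite strand, in that of *Il15ra*, at −149 to −141. Of the 7 members, 6 had a window, and *Il2rb* had none. Another start of *Il15ra* had its window at chr2:11710273-11710522 in GRCm39, and that window held none of these letters. The matches are descriptions of letters, with no binding measured.

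In the cultured cells, the members fell into a detected and an undetected set. *Il4ra*, the chain for IL-4 and IL-13, had the highest level per length in both groups, at 3.32 ± 2.31 RPKM (CPM per kilobase of exon; SD, n = 4) in control cells and 3.80 ± 2.15 in m.11,944 60% cells. *Il15ra*, which presents IL-15, followed in the control cells at 0.441 ± 0.212 RPKM. Next were *Il2rb*, the signalling chain for IL-2 and IL-15, at 0.152 ± 0.168 RPKM and *Il2rg* at 0.0856 ± 0.0216 RPKM, and these 2 did not differ beyond their spread. *Il2ra*, the high-affinity chain for IL-2, and *Il7r*, the IL-7 receptor chain, had 0 counts in all 8 cultures. *Il21r*, the IL-21 receptor chain, had 1 count, in a control culture. A count of 0 allows a mean of up to 0.0251 CPM over the 4 control cultures and 0.0262 CPM over the 4 mutant ones, which covers counting error only.

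*Il2rg* was the member that separated the 2 groups of cultures. Its counts were 24, 35, 35 and 39 in the m.11,944 60% cultures 1 to 4, and 5, 7, 5 and 7 in the control cultures. As CPM these were 0.941, 1.32, 1.34 and 1.07 against 0.183, 0.255, 0.142 and 0.237. Every mutant culture lay above every control culture. The mean was 0.204 ± 0.0515 CPM in control and 1.17 ± 0.195 CPM in mutant cells (SD, n = 4 each), a fitted log2 difference of 2.50. In the order of levels per length, *Il2rg* stood below *Il15ra* and *Il2rb* in control cells and second, at 0.489 ± 0.0818 RPKM, in mutant cells, where its range overlapped that of *Il15ra* (0.392 ± 0.179 RPKM). No library held more than 39 reads of the gene. Of the 7 members, 4 passed the filter on low counts in the cultures, *Il2rg* only through the mutant ones, and all 7 passed it in the tumors. This is the contrast by which the gene was chosen, and no test is given for it.

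**Figure D1:**
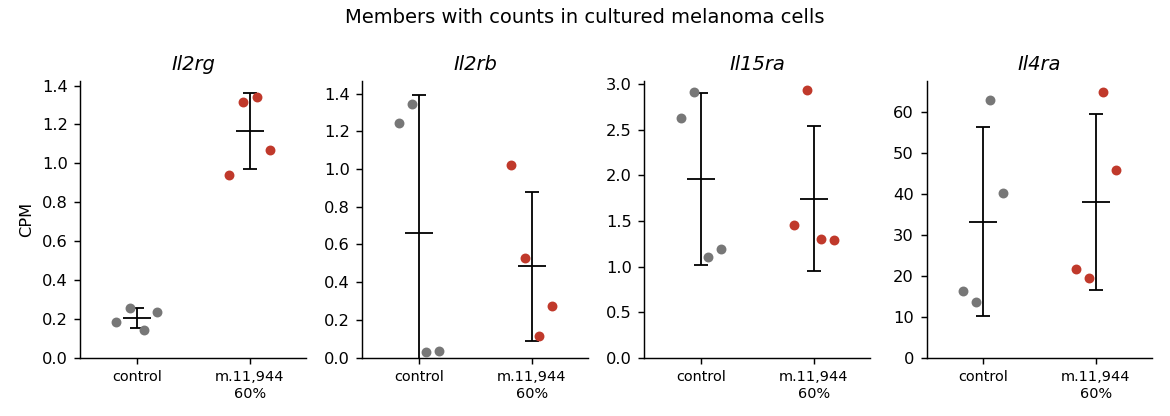
Levels (CPM, y axis from 0, 1 scale per panel) of the 4 members with more than a single count in cultured cells, in 4 control and 4 m.11,944 60% cultures; points are cultures in the order of their number, and bars the mean and SD, cut at 0. *Il2rg* separates the groups, from 0.142 to 0.255 CPM in controls and from 0.941 to 1.34 in mutant cells, while the other panels overlap.

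None of the 3 partners that could be tested passed the threshold between the cultures. By edgeR's quasi-likelihood test with Benjamini–Hochberg adjustment over 12930 genes, the log2 difference of mutant minus control was 0.19 ± 0.57 (SE) for *Il4ra*, −0.17 ± 0.43 for *Il15ra* and −0.44 ± 1.09 for *Il2rb*, and each adjusted p was 1.00. The test called 0.0387% of genes at an adjusted p under 0.1, and 3.48% of genes did not overlap between the groups.

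The values of *Il4ra* and *Il2rb* split by the number of the culture in both groups, and those of *Il15ra* in the controls. *Il4ra* was at 16.3 and 13.5 CPM in control cultures 1 and 2 and at 62.7 and 40.1 CPM in cultures 3 and 4. In the mutant cultures it was at 21.7, 19.5, 64.7 and 45.8 CPM, in the same order. *Il2rb* went the other way, with 34 and 37 counts in control cultures 1 and 2 and 1 count each in cultures 3 and 4, and with 26, 14, 3 and 10 counts in the mutant cultures. *Il15ra* was at 2.63 and 2.91 CPM in control cultures 1 and 2 and at 1.11 and 1.19 CPM in 3 and 4. In the mutant cultures *Il15ra* was at 1.45, 2.93, 1.30 and 1.29 CPM, so that culture 2 alone stood apart. Across genes, same-numbered cultures deviated together (mean correlation 0.796), so the numbers were taken to pair the cultures. In a fit blocked on that number, the share of all genes called was 7.11% (919 genes against 5), and the partners still did not pass, with *Il4ra* at a log2 difference of 0.28 (adjusted p = 0.12), higher in 4 of 4 pairs.

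The genes beside *Il2rg* were measured in the same cultures. *Gm614*, 351 bases away and on the same strand, had 0 counts in all 8. *Med12*, a Mediator subunit 5736 bases beyond the start of *Il2rg*, was at 61.9 ± 9.41 CPM in control and 62.8 ± 7.22 CPM in mutant cells. *Foxo4*, a forkhead factor on the other side, was at 17.97 ± 4.15 and 19.3 ± 2.99 CPM. For both of these neighbours the group means lay within 1 SD of each other.

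The kinases and STATs of these receptors were all measured in the cultured cells. Of the 4 other receptor partners, *Crlf2* alone passed the filter on low counts, and it was not called. Of 9 kinases and STATs of these receptors, all 9 passed the filter on low counts and none was called, with a median log2 difference of 0.25 (−0.00 over all genes). *Jak1*, the kinase of several partner chains, was at 254 CPM in control and 276 CPM in mutant cells. *Jak3*, the kinase bound to the common gamma chain, was at 11.7 and 14.7 CPM, a log2 difference of 0.33 ± 0.14 (SE; adjusted p = 1.00), and all 4 mutant cultures lay above the controls. With the replicate block, *Stat5a* (0.45 ± 0.12, edgeR adjusted p = 0.085) and *Stat5b* (0.25 ± 0.072, adjusted p = 0.093), the STATs that act below IL-2 and IL-7, were called higher. The survival gene *Mcl1* was called lower (−0.32 ± 0.076, adjusted p = 0.062). That fit called 7.11% of all genes, 2 of the 9 kinases and STATs, and 1 of 7 tested STAT5-linked feedback and target genes. Of 8 ligand genes, 1 passed the filter on low counts and it was not called. *Cish*, a feedback inhibitor induced through STAT5, had no count in any culture.

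Every member had a higher level in the 4 control tumors than in the 4 control cultures. *Il4ra*, the member with the most reads in culture, rose from 36.1 to 125 CPM, a log2 difference of 1.79 ± 0.45 (SE; edgeR adjusted p = 0.0070), and *Il15ra* from 2.14 to 8.83 CPM, by 2.05 ± 0.34 (adjusted p = 7.3e-04). Each was higher in 4 of 4 tumors than in every culture. For the other members, few or no counts in culture set a bound. *Il7r* was at least 91.2-fold higher and *Il2ra* at least 61.4-fold higher, against a floor of 3 counts over the control cultures. The ratio was 89.9 for *Il2rg* (95% counting interval 60.3 to 141, from 2263 and 24 counts). It was 1304 for *Il21r*, from 1367 counts and 1, with a counting interval of 234 to 51529. *Il2rb* had a ratio of 19.8 (15.6 to 25.4 by counting error alone), but its culture counts were 34, 37, 1 and 1, and the fitted log2 difference of 4.21 had a 95% interval of 2.18 to 6.24. Leaving out 1 library gave 3.77 to 4.82. Culture and tumor differ throughout, since 65.2% of all genes were called and 56.9% did not overlap.

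In tumors the order of the members changed, and *Il2rg* stood second per length in control tumors. In control tumors, *Il4ra* was at 13.8 ± 2.10 RPKM and *Il2rg* at 9.05 ± 1.59 RPKM, with overlapping ranges. They were followed by *Il21r* (3.84 ± 0.403), *Il2rb* (3.33 ± 1.56) and *Il15ra* (2.20 ± 0.298 RPKM), whose neighbouring ranges overlapped. *Il7r* (0.573 ± 0.178) and *Il2ra* (0.312 ± 0.237 RPKM) were lowest and overlapped each other. In m.12,436 60% tumors *Il2rg* (13.5 ± 3.07 RPKM) and *Il4ra* (12.6 ± 1.91 RPKM) overlapped, and in m.12,436 40% tumors *Il4ra* stood above *Il2rg* without overlap.

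Between tumor groups, *Il2rg* was highest in m.12,436 60% tumors. The 7 of these tumors ranged from 23.6 to 39.7 CPM around a median of 31.2. For the m.12,436 40% group the range was 16.3 to 23.7 CPM and the median 23.02. The control tumors were at 18.7, 26.7, 18.7 and 22.3 CPM. Of the m.12,436 60% tumors, 5 were above every control tumor and 6 above every m.12,436 40% tumor. The means were 32.2 ± 7.32, 21.7 ± 2.59 and 21.6 ± 3.81 CPM (SD), so that the 40% group was at the control level. The log2 difference was 0.58 for 60% minus control, 0.57 for 60% minus 40%, and 0.01 for 40% minus control. The first 2 values are those by which the gene was chosen.

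**Figure D2:**
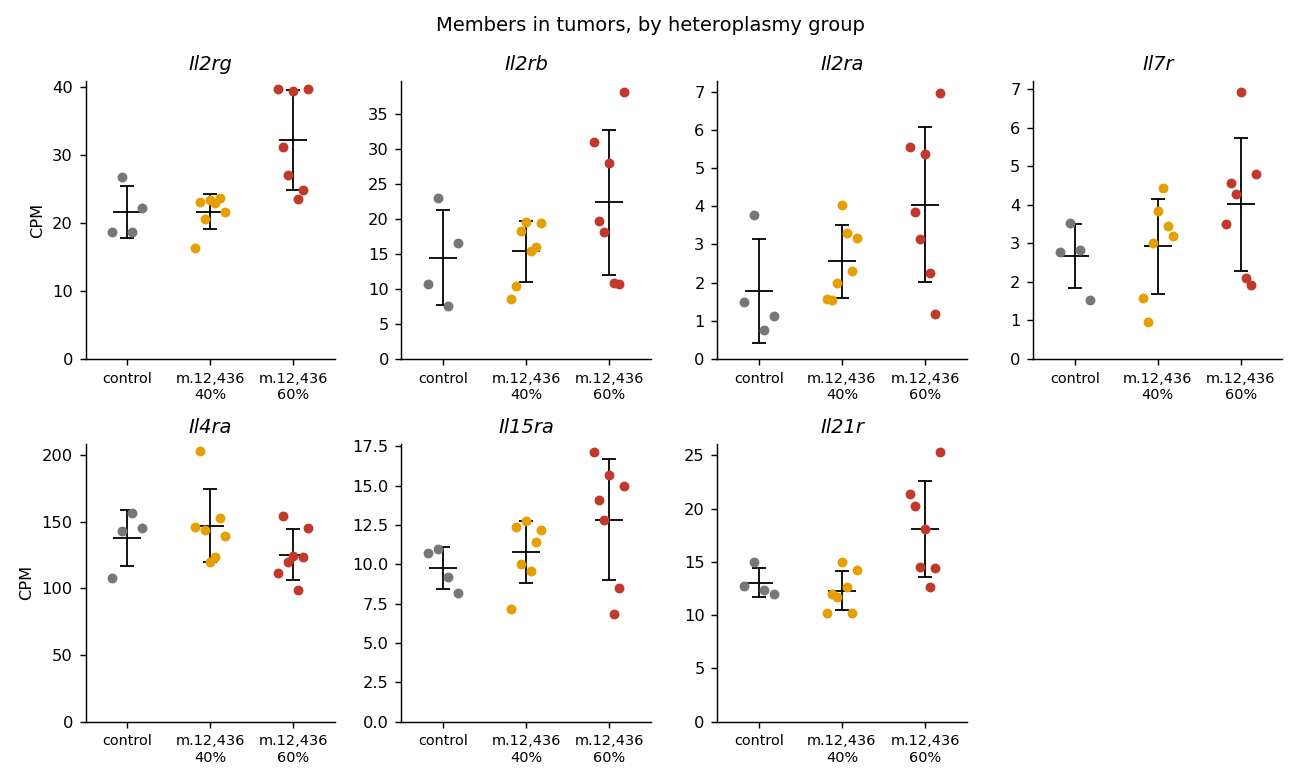
Levels (CPM, y axis from 0, 1 scale per panel) of all 7 members in 4 control, 7 m.12,436 40% and 7 m.12,436 60% tumors; points are tumors in the order of their number, and bars the mean and SD. For all members but *Il4ra* the highest tumor is in the 60% group (39.7 CPM for *Il2rg*, 38.1 for *Il2rb*, 25.3 for *Il21r*), with ranges that overlap the other groups, and *Il4ra* stays between 98.6 and 203 CPM.

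By edgeR over all 18 tumors, *Il21r* was the single partner called between tumor groups, while DESeq2 called more members for 60% minus control, as given further on. Its level ranged from 12.6 to 25.3 CPM in m.12,436 60% tumors (median 18.1) and from 10.2 to 15.0 CPM in m.12,436 40% tumors (median 11.98). In all, 4 of the 7 m.12,436 60% tumors lay above every 40% tumor. The difference of 60% minus 40% was 0.56 ± 0.14 on the log2 scale (SE; edgeR adjusted p = 0.062), in a comparison in which 1.81% of all 16213 genes were called and 0.623% did not overlap. Leaving out 1 tumor in turn took the adjusted p to between 0.029 and 0.14, and it was above 0.1 without m.12,436 60% tumor 1, 2, 4 or 7 and without m.12,436 40% tumor 1 or 6. With the leukocyte marker score (the mean log2 CPM of 8 markers) as a covariate the difference was 0.12 (edgeR adjusted p = 0.67). All 8 markers had a higher mean in the 60% than in the 40% tumors, so this fit cannot separate group from score. Against control tumors, which were at 12.8, 15.0, 12.3 and 11.996 CPM, the difference was 0.47 ± 0.16 (adjusted p = 0.15), not called.

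The other 5 partners did not pass the edgeR test in any comparison between tumor groups, although 4 of them had higher means in m.12,436 60% tumors. *Il2ra* had a difference of 1.17 ± 0.46 against control tumors (edgeR adjusted p = 0.22), with a range of 1.17 to 6.96 CPM in the 60% tumors and values of 1.48, 3.76, 0.757 and 1.12 CPM in control tumors. Leaving out 1 tumor in turn moved it between 0.91 (adjusted p = 0.60, without control tumor 003) and 1.87 (adjusted p = 0.059, called, without control tumor 002). *Il2rb* had a difference of 0.63 ± 0.37 (adjusted p = 0.41), with 10.8 to 38.1 CPM against 7.57 to 22.9 CPM. For *Il7r* it was 0.58 ± 0.37 (adjusted p = 0.46) and for *Il15ra* 0.40 ± 0.21 (adjusted p = 0.36). The ranges overlapped in each case. In the fit with the leukocyte score as a covariate, these 4 differences turned negative, as given further on, and the cause was not tested. *Il4ra* had a difference of −0.14 ± 0.14 (adjusted p = 0.64) and is the one member with a lower mean in this group. In that comparison, 2.31% of genes were called and 4.07% did not overlap.

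Against the same control tumors, m.12,436 40% tumors gave 0 genes past the threshold (0% of genes called, 825 at an unadjusted p under 0.05 by edgeR, and 5 called by DESeq2), and 0.45% of genes did not overlap. The log2 differences of the members were 0.50 for *Il2ra*, 0.14 for *Il15ra*, 0.12 for *Il7r*, 0.09 for both *Il2rb* and *Il4ra*, and −0.09 for *Il21r*. The value for *Il2ra* ran from 0.25 without control tumor 003 to 1.21 without control tumor 002. The median over the 6 partners, without *Il2rg*, was 0.11, against 0.00 over all genes. For 60% minus control it was 0.53 (all genes −0.00) and for 60% minus 40% 0.50 (all genes −0.00). The 2 comparisons with control tumors share those 4 tumors. With the interval of 40% minus control from −0.32 to 0.33, *Il2rg* could not be told apart from the control level.

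**Figure D3:**
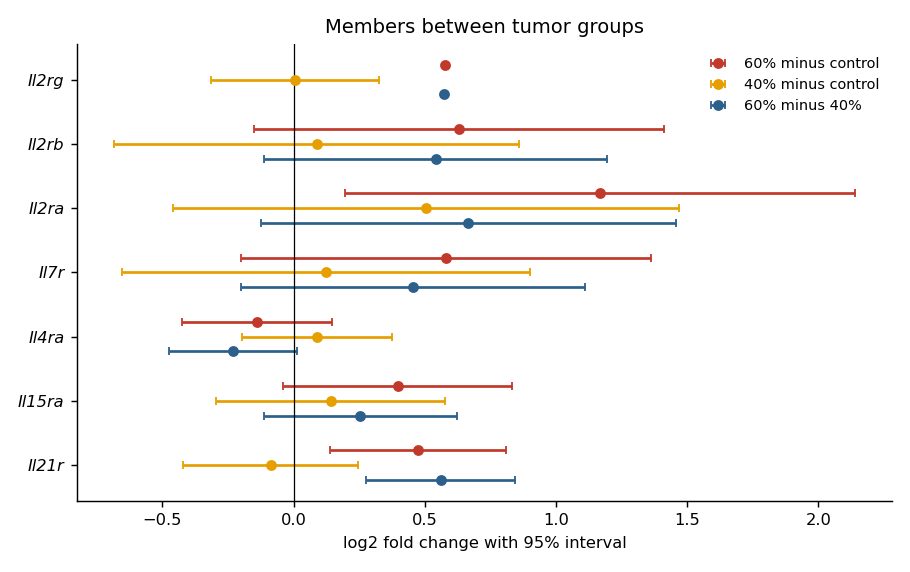
Log2 difference of each member (x axis) for 60% minus control, 40% minus control and 60% minus 40% tumors, with 95% intervals from the fit over 18 tumors. For *Il2rg* the 2 contrasts that chose it carry no interval; the differences with the 60% group lie between 0.25 and 1.17 for all members except *Il4ra*, which lies at −0.14 and −0.23.

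The marker lists of cell types were also compared between the tumor groups, and most lists had no gene called. The summed level of 8 leukocyte markers lay between 894 and 1182 CPM in control tumors, between 1014 and 1150 in m.12,436 40% tumors, and between 1055 and 1678 in m.12,436 60% tumors. All 8 had a higher mean in the 60% group than in the controls, and *Lsp1* (0.60 ± 0.11, edgeR adjusted p = 0.014) and *Arhgap30* (0.28 ± 0.067, adjusted p = 0.047) were called. In that comparison 2.31% of all genes were called. *Arhgap30* was also at 65.5 CPM in the control cultures, so its level in tumors is not from leukocytes alone. The 8 T cell markers summed to 8.10 to 31.0, 7.97 to 23.1 and 10.5 to 57.8 CPM in the same order of groups, and none was called. The 7 NK cell markers summed to 5.96 to 13.0, 5.06 to 14.4 and 5.98 to 23.7 CPM, with none called. The macrophage list summed to 1161 to 1460, 1119 to 1430 and 1064 to 1809 CPM, with none called. Other lists did not follow these. For 60% minus control, all tested genes of the neutrophil (5), endothelial (5) and mast cell or basophil (3) lists had lower means in the 60% group, with median log2 differences of −0.19, −0.17 and −0.92 and none called. The B cell transcription factor gene *Pax5* was called lower (−1.12 ± 0.23, adjusted p = 0.026), as was the pigment gene *Pmel* (−2.21 ± 0.51, adjusted p = 0.046), whose control mean includes control tumor 003. The part of these cell types in the members' values was not tested. With the leukocyte marker score as a covariate, the difference of *Il2rg* for 60% minus control, a contrast that chose it, was 0.04. All 8 markers of the score had higher means in the 60% group, so this fit cannot separate group from score.

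The members' counts were also set against those of the leukocyte markers. *Il2rg* counts were 2.14 ± 0.0928% of the summed leukocyte marker counts in control tumors, 2.00 ± 0.243% in m.12,436 40% tumors and 2.38 ± 0.271% in m.12,436 60% tumors. As a percentage of *Ptprc* counts, they were 30.2 ± 4.29, 27.6 ± 3.18 and 29.0 ± 1.88. *Il21r* was at 1.30 ± 0.111%, 1.13 ± 0.117% and 1.33 ± 0.147% of the leukocyte markers. *Il4ra* was at 13.8 ± 2.62% of them in control, 13.6 ± 2.85% in m.12,436 40% and 9.37 ± 1.17% in m.12,436 60% tumors. These are descriptions of ratios, with no test, and the leukocyte markers include *Arhgap30*, which the cultures also expressed.

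Within groups, 6 members varied from tumor to tumor with the leukocyte markers, and *Il4ra* did not. To leave out the group means, each tumor's log2 CPM was taken as its deviation from its own group, and correlated over 18 tumors by a permutation test within groups. *Il2rg* and the leukocyte score had a Pearson r of 0.89 (permutation p = 2e-05, adjusted p = 1.8e-04 over 70 relations) and a Spearman rho of 0.87 (permutation p = 1.2e-04, adjusted p = 8.4e-04). Without the 2 tumors farthest from the median of the score, r was 0.87. *Il2rb* and the T cell score had an r of 0.96 (permutation p = 1e-05, the smallest that the permutations can give, adjusted p = 1.0e-04) and a rho of 0.92 (permutation p = 4e-05, adjusted p = 4.4e-04), with r = 0.94 without 2 tumors. *Il21r* and the macrophage score had an r of 0.91 (permutation p = 1e-05, adjusted p = 1.0e-04) and a rho of 0.93 (permutation p = 1e-05, adjusted p = 1.4e-04), with r = 0.86 without 2 tumors. *Il4ra* and the leukocyte score had an r of 0.28 (permutation p = 0.28, adjusted p = 0.34) and a rho of 0.19 (permutation p = 0.48, adjusted p = 0.58), with r = −0.03 without 2 tumors.

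**Figure D4:**
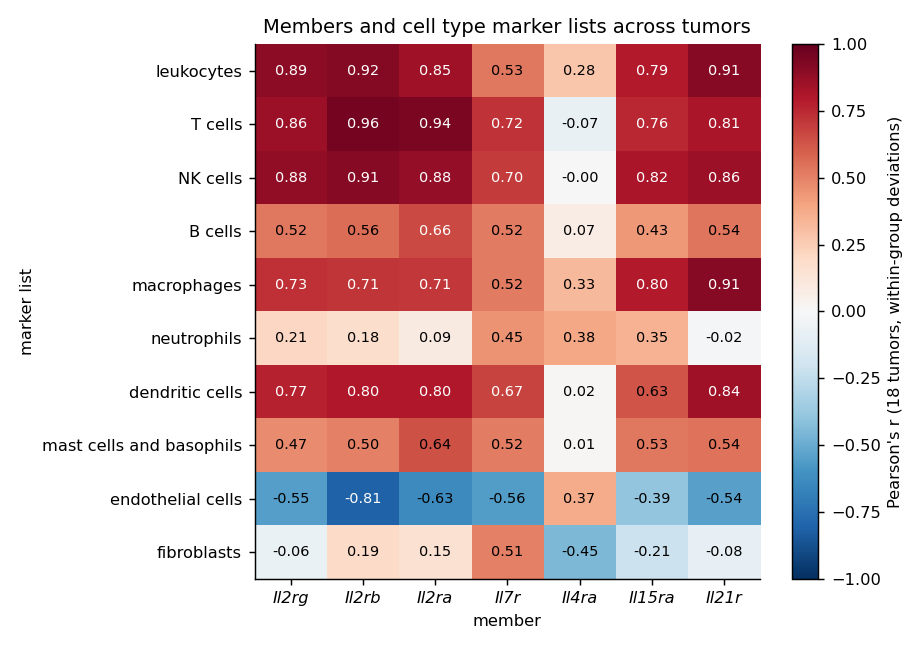
Pearson's r between each member (columns) and the mean log2 CPM of each marker list (rows), over the within-group deviations of 18 tumors; red is positive and blue negative. All columns but *Il4ra* are red for leukocytes, T cells, NK cells, macrophages and dendritic cells, and the endothelial row is blue for the same 6 members.

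Of the 70 relations, 44 passed an adjusted p under 0.1 by r and 41 by rho. The share of all genes that would pass was not computed, so these counts cannot be called particular to the members. The counts by member were 8 of 10 for *Il2ra*, *Il7r* and *Il21r*, 7 for *Il2rg* and *Il2rb*, 6 for *Il15ra* and 0 for *Il4ra*. Leukocytes, T cells, NK cells, macrophages and dendritic cells each passed with 6 of 7 members, and neutrophils and fibroblasts with none. The endothelial list had negative values, down to −0.81 with *Il2rb*. Among the members themselves, all 15 pairs without *Il4ra* passed by r, with r between 0.50 and 0.88. None of the 6 pairs with *Il4ra* passed, with r between −0.25 and 0.24. By rho, the pair of *Il7r* and *Il15ra* did not pass either (rho 0.44, adjusted permutation p = 0.13). *Il2rg* and *Il2rb* had an r of 0.87 (permutation p = 4e-05, adjusted p = 4.2e-04 over 21 pairs) and a rho of 0.86 (permutation p = 1.6e-04, adjusted p = 0.0011). The members and lists share libraries and depth, and the part of cell number in these relations was not tested.

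**Figure D5:**
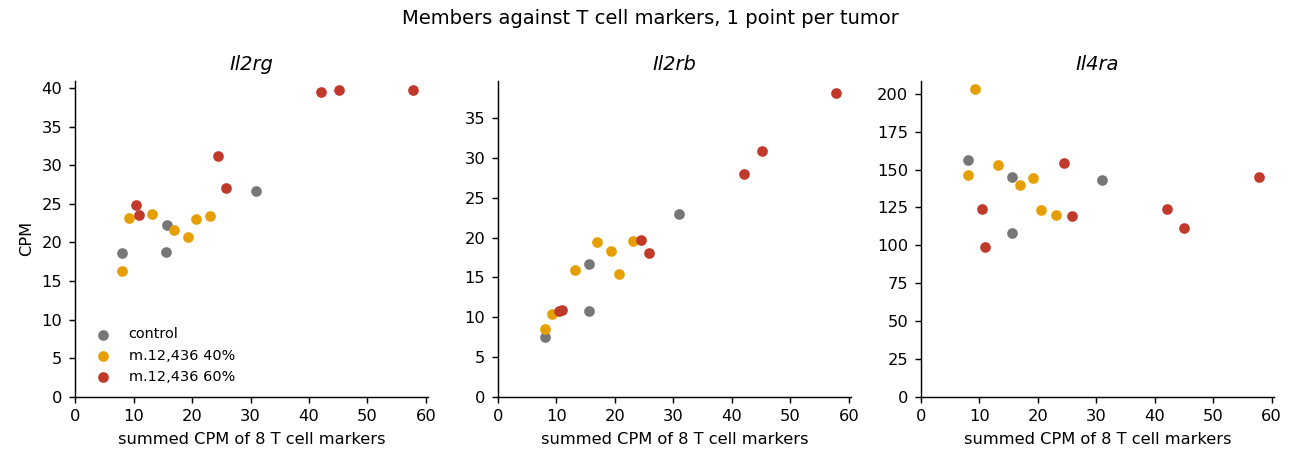
Level (CPM, y axis from 0) of *Il2rg*, *Il2rb* and *Il4ra* against the summed CPM of 8 T cell markers (x axis), 1 point per tumor, colored by group. *Il2rg* and *Il2rb* tend to be higher where the T cell markers are, with 3 of the 60% tumors at the top right. Among the 40% tumors *Il2rg* lies within 20.7 to 23.7 CPM, except in tumor 1 (16.3 CPM). *Il4ra* does not climb with the markers (r = −0.07 within groups).

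The genes most like *Il2rg* were found by the same deviations over 18 tumors, among 12310 genes with a mean log2 CPM of at least 1. The first was *Ms4a4b*, a membrane gene of T cells (r = 0.93), followed by *Ptpn18* (0.92), *Irag2* (0.91), *Sema4d* (0.90), *Coro2a* (0.90), *AB124611* (0.90), *Parp14* (0.90) and *Samhd1* (0.90). For *Il2ra* they were *Lck*, the T cell kinase (0.95), *Cd2* (0.95) and *Arhgap15* (0.95). For *Il2rb* they were *Sema4a* (0.97), the T cell receptor constant gene *Trac* (0.97) and *H2-Q7* (0.97). For *Il15ra* they were *Snx20* (0.93), the interferon-induced chemokine *Cxcl10* (0.92) and *Epsti1* (0.92). *Il21r* was closest to *Ms4a7* (0.94), *Vav1* (0.91) and *Nckap1l* (0.90), and *Il7r* to the Fc receptor gene *Fcgr2b* (0.86), *Ist1* (0.84) and *Cyp27a1* (0.84). *Il4ra* was closest to *Cstf2* (0.92), *Smc2*, a condensin subunit (0.88), and *Clspn*, a replication checkpoint gene (0.87). These values are descriptions, and the genes were the highest of many.

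Of the pathway around the receptors, no listed kinase, STAT or ligand gene was called between tumor groups. Of 9 kinases and STATs, all 9 were tested and none was called in the 3 comparisons. All 9 had a higher mean in m.12,436 60% than in control tumors, with a median log2 difference of 0.20. *Jak3* was at 109 CPM in m.12,436 60%, 90.5 in m.12,436 40% and 85.6 in control tumors, with a difference of 0.34 ± 0.12 for 60% minus control (edgeR adjusted p = 0.18) and 0.26 ± 0.10 for 60% minus 40% (adjusted p = 0.26). *Jak1* was at 319, 298 and 297 CPM, with a difference of 0.10 ± 0.069 (adjusted p = 0.49) for 60% minus control. Of 8 ligand genes 4 could be tested, of 4 other receptor partners 3, of 8 STAT5-linked feedback genes 8 and of 6 IL-4-linked macrophage genes 6, and none was called in any comparison between tumor groups. Of the ligands, *Il15* was at 3.48 CPM in control tumors, and *Il2* at 0.042 CPM and *Il21* at 0 CPM there.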

How the data were processed

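RNA was measured by bulk RNA-seq in cultured B78-D14 cells and in subcutaneous tumors. Reads were mapped to GRCm39 by STAR and assigned to genes by featureCounts, and the authors deposited the raw counts in 1 table, not normalized. The strand setting is not given in the sources used here. Of 47 sample columns, 26 were matched to a sample by name or by inference from it, and 21 were not used, because their names fit no single sample. The m.11,944 60% cultures were matched through a heading in the study's source data. The m.12,436 tumor columns are named high or low, with no mutation. They were matched because the source data use these words for 60% and 40%, and only these groups reach number 7. Control cultures and control tumors were told apart by their numbering. Total counts per library, given above, set the precision.

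Counts were scaled by TMM and tested with edgeR 4.0.16 in R 4.3.3 (filterByExpr, robust quasi-likelihood, two-sided, Benjamini–Hochberg adjustment over all genes, threshold 0.1). Cultures and tumors were fitted separately, as were control tumors with control cultures. Same-numbered cultures deviated together in every pair (lowest correlation 0.718), and same-numbered tumors did not (mean −0.156 to −0.006). Correlations used log2 CPM with a prior count of 2 and 100000 permutations. CPM in the comparison of control tumors with control cultures was scaled within those 8 libraries and differs slightly from the other CPM.

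Named genes were the members, *Jak1* and *Jak3*, genes of 5 pathway lists past the threshold, genes beside *Il2rg*, and the 8 genes most like *Il2rg* and 3 most like each other member. Genes named otherwise (markers, *Il15*, *Il2*, *Il21*, *Cish*) were chosen after their values were seen. The members and lists were chosen with earlier results of these data known. A list was correlated where at least 3 of its genes were measured, which left out the melanoma list. Nothing in the labels says which tumors share an animal or cultures a passage, so p-values measure only the spread between these samples. Alternatives were limma-voom 3.58.1, DESeq2 1.42.0, other size factors, no filter, a threshold of 0.05, a replicate block, only the 2 groups compared, a leukocyte score covariate and each library left out.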

Additional observations from a re-analysis of the deposited data

Results flagged for a closer look

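Of 29 sets of member values in a group, 3 had an end value far from the rest by Dixon's criterion, which chance alone meets in about 1 of 20 groups. *Il2rg* was at 16.3 CPM in m.12,436 40% tumor 1, against 20.7 to 23.7 CPM in the other 6. *Il4ra* was at 203 CPM in m.12,436 40% tumor 2, against 120 to 153 CPM in the other 6. *Il15ra* was at 2.93 CPM in m.11,944 60% culture 2, against 1.29 to 1.45 CPM in the other 3.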

How the results depend on the processing

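Of 588 values of single members or correlations recomputed under an alternative, 514 kept their direction and their side of the threshold, 35 lost a call, 4 gained one and 35 turned in sign. DESeq2 called 84 genes in cells, 1056 for 60% minus control, 744 for 60% minus 40% and 5 for 40% minus control, and 3 members for 60% minus control. Without the filter on low counts, 178 genes and 1 member were called for 60% minus 40%, and 0 members for 60% minus control. At a threshold of 0.05, 150 genes and 0 members were called for 60% minus control, and 113 genes and 1 member for 60% minus 40%. Only the 2 groups compared gave 943 genes and 0 members for 60% minus control.

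The replicate number as a block gave 919 genes in cells, where the numbers pair the cultures, and 178 genes and 0 members for 60% minus control, where they do not; no other member call changed in the blocked fits. With the leukocyte score as a covariate, 18 genes and 0 members were called for 60% minus control, and 51 genes and 0 members for 60% minus 40%. In that fit, differences for 60% minus control turned to −0.65 for *Il2rb*, −0.25 for *Il2ra*, −0.27 for *Il7r*, −0.30 for *Il15ra* and −0.11 for *Il21r*. For 60% minus 40% they turned to −0.51, −0.55, −0.18 and −0.26 for *Il2rb*, *Il2ra*, *Il7r* and *Il15ra*, and for 40% minus control to −0.11 for *Il2rg*, −0.14 for *Il2rb*, −0.085 for *Il7r* and −0.036 for *Il15ra*. Limma-voom gave 0.70 for *Il2rb* in cells. Without the 2 tumors farthest from the median score, *Il4ra* had r of −0.035 with leukocytes and −0.022 with macrophages. The cause was not tested.

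Counts of members include *Il2rg* (1 of 1 in cells and for 60% minus control, 1 of 2 for 60% minus 40%), which was chosen on these contrasts. Leaving out each library in turn gave 0 genes and 0 members in cells in every case. The lowest and highest counts were 66 to 724 genes and 0 to 2 members for 60% minus control, 108 to 452 genes and 0 to 2 members for 60% minus 40%, and 0 to 4 genes for 40% minus control. The 66 came without control tumor 003 and the 724 without control tumor 004. Differences in cells ranged from −1.09 to 0.16 for *Il2rb*, −0.19 to 0.70 for *Il4ra* and −0.54 to 0.081 for *Il15ra*. For 40% minus control they ranged from −0.056 to 0.14 for *Il2rg*, −0.12 to 0.42 for *Il2rb*, −0.011 to 0.16 for *Il4ra* and −0.047 to 0.30 for *Il7r*. In the cultures, 3 members had 1 count or none, and differences in them were not detectable at this depth.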
